A study of Mus musculus with 4 samples.

Results

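Small nucleolar RNAs guide chemical changes of other RNAs. Box C/D snoRNAs pair with their targets and direct 2'-O-methylation by fibrillarin (Fbl), whereas box H/ACA snoRNAs direct pseudouridylation by dyskerin (Dkc1). Both kinds act mainly on ribosomal RNA in the nucleolus. Cajal body RNAs (scaRNAs) carry one or both box types, reside in the Cajal body and modify spliceosomal snRNAs. In mammals most of these RNAs are cut out of the introns of host genes, many of which encode ribosomal proteins or are non-coding.

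RNA-seq was available for mouse embryonic stem (ES) cells grown in serum with LIF: 1 wild-type library (line wt26, passage 46) and 3 libraries of Morc3 rescue clones, T131-3C, T131-3D and T131-3M (here 3C, 3D and 3M). Each rescue clone grew from a single cell of the Morc3 knock-out line KO27-2, itself a CRISPR/Cas9 clone of wt26, after a PiggyBac transposon had brought in a Morc3 cDNA with puromycin resistance under the human PGK promoter. All clones therefore share the knock-out parent, transgene and selection, which the wild type lacks. Knock-out libraries were not analysed here. The comparison asks how far snoRNAs and scaRNAs of the rescue clones differ from wild type. Spread can be measured only among the 3 clones, so each p-value assumes that wild type, with 1 library, varies like them.

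The members were all gene rows whose symbol starts with Snora, Snord or Scarna and a digit. There were 119 among 24054 genes: 36 box H/ACA, 74 box C/D and 9 Cajal body rows. The reverse-strand counts of these genes were used. The libraries held between 13620914 and 18789457 gene counts. All members together took 6208 counts in wild type (0.0330% of gene counts, exact 95% interval 0.0322 to 0.0339) and 3962, 4485 and 4540 in 3C, 3D and 3M. A member at 0 counts could have a level of up to 0.157 CPM (counts scaled to a common library size) in wild type and 0.222 CPM in 3C, the level of 3 counts. Intervals and these limits cover counting error only. Morc3 stood at 161 CPM in wild type and 587 ± 81.5 CPM in the clones (SD, n = 3), with a log2 fold change of 1.87 (edgeR adjusted p = 0.108). The 6 markers of ES cells lay between 152 CPM (Klf4 in 3M) and 766 CPM (Pou5f1 in wild type). Of 10 markers of fibroblasts, endoderm and neural cells, Thy1, Vim and Nes lay between 18.6 and 60.3 CPM. The others reached at most 4.95 CPM, with Col1a2, Gata6, Sox17 and Pax6 below 1 CPM in each library.

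The sequences below are those that the results turn on. They were taken from GENCODE M21 transcripts on GRCm38 (mm10) and are given 5′ to 3′. Capitals mark TGATGA in the first 20 bases (the core of the C box), CTGA in the last 20 bases (the D box) and, where neither occurs, ACA in the last 10 bases. The first 5 are the Cajal body RNAs that passed the filter on low counts. For Scarna10 and Scarna2, only the span that RefSeq gives is shown, which leaves out the 5′ part of the GENCODE transcript. The whole GENCODE transcript has TGATGA in its first 20 bases for Scarna10, and not for Scarna2.
Scarna10 (chr6:125186361-125186431, minus strand): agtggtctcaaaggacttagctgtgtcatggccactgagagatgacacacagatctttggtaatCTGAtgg
Scarna2 (chr3:108554342-108554402, minus strand): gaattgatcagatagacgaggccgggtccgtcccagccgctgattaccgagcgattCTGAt
Scarna6 (chr1:87784556-87784820, plus strand): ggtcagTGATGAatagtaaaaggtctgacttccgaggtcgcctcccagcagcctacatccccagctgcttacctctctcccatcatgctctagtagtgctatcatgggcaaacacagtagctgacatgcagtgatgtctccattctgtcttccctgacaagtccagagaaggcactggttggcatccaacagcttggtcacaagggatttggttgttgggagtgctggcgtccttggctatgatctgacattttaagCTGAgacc
Scarna13 (chr12:105031075-105031349, minus strand): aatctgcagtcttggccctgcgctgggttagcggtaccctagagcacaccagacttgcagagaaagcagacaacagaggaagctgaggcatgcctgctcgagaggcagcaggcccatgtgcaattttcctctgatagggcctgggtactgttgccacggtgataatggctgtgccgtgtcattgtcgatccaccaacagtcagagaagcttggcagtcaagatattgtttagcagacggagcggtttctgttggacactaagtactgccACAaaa
Scarna9 (chr9:15326264-15326333, minus strand): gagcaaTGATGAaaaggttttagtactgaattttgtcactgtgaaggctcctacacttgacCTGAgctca

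The next set holds box C/D and box H/ACA members. Snord22 has no TGATGA in its first 20 bases, and the H box of the H/ACA sequences is not marked. Snord17 and Snord22 held the most counts of the box C/D class. Snord32a and Snord33 lie in one host gene and have nearly the same length but unlike counts. Snora70 had the lowest log2 fold change among box H/ACA members, and Snora65 was among the most abundant.
Snord17 (chr2:144265979-144266216, minus strand): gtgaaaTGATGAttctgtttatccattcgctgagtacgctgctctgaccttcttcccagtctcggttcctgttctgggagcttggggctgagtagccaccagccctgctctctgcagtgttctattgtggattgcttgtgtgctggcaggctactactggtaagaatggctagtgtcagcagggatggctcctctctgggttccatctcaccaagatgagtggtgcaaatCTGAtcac
Snord22 (chr19:8725866-8725991, plus strand): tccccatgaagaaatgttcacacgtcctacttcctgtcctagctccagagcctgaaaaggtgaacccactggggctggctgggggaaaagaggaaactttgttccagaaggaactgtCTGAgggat
Snord32a (chr7:45127382-45127464, minus strand): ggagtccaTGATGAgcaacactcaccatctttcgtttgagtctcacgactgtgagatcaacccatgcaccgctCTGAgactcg
Snord33 (chr7:45126864-45126947, minus strand): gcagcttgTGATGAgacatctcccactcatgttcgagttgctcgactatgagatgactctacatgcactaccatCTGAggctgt
Snora70 (chrX:74272484-74272620, plus strand): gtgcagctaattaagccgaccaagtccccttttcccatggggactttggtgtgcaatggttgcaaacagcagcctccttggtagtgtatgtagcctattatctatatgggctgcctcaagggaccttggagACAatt
Snora65 (chr2:32963291-32963420, plus strand): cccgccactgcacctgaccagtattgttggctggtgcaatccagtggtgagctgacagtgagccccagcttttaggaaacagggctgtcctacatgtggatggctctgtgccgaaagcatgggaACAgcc

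The symbols' classes were checked against these short motifs on the RNA strand, over all members with a GENCODE transcript. TGATGA stood in the first 20 bases of 46 of 73 box C/D sequences (63.0%), of none of 36 box H/ACA sequences and of 4 of 9 Cajal body sequences, against 0.7% of all GENCODE transcripts. CTGA stood in the last 20 bases of 97.3% of box C/D, 11.1% of box H/ACA and 55.6% of Cajal body sequences, against 9.2% of all transcripts. ACA stood in the last 10 bases of 94.4% of box H/ACA, 9.6% of box C/D and 44.4% of Cajal body sequences, against 14.4% of all transcripts. CTGA and ACA thus stood at the ends of nearly all box C/D and box H/ACA sequences, respectively, whereas the Cajal body class held both kinds.

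The counts of most members were low. The median member had 16 counts in wild type, against 12, 15 and 14 in 3C, 3D and 3M. In wild type 74 members reached 10 counts, and in the clones 63, 69 and 67 did. The filter on low counts kept 71 members, namely 27 of 36 box H/ACA, 39 of 74 box C/D and 5 of 9 Cajal body RNAs. Of the other 48, 35 had some counts, with at most 11 in any library, and 13 had none in any library. A mean of 100 or more counts was reached by 10 members, of which 5 were Cajal body RNAs, 3 box H/ACA and 2 box C/D. Of the summed counts of a class over all libraries, the 5 most counted RNAs held 99.4% in the Cajal body class, 50.3% in box H/ACA and 45.1% in box C/D.

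Counts also varied with length. Median GENCODE lengths were 80 bases for box C/D (64 to 238), 132 for box H/ACA (121 to 196) and 140 for Cajal body RNAs (70 to 414). The filter kept 22 of 37 members of 60 to under 80 bases, 12 of 27 of 80 to under 100, 29 of 46 of 100 to under 150, and all 8 of 150 bases or more. Those 8 had a median of 285 counts averaged over the libraries, against 17.6 for 100 to under 150 bases, 6.25 for 80 to under 100 and 14.5 for 60 to under 80, so counts did not follow length among the shorter members. Per kilobase of GENCODE length, these 8 had a median of 68.6 CPM per kb. The medians were 8.33 for 100 to under 150 bases, 3.93 for 80 to under 100 and 13.6 for 60 to under 80. These groups depend on the annotation, since RefSeq gives Scarna2 and Scarna10 under 80 bases. Spearman's rho of length with mean count was 0.251 over 118 members of all classes. It was 0.288 within box H/ACA (36 members) and −0.0575 within box C/D (73 members). The plot of counts against length shows that RNAs over 150 bases hold most of the highest points. RNA clean-up and library preparation can lose short RNAs. The fragment sizes kept were not given in the sources used here, so a low count of a short member need not mean a low level in the cell.

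**Figure D1:**
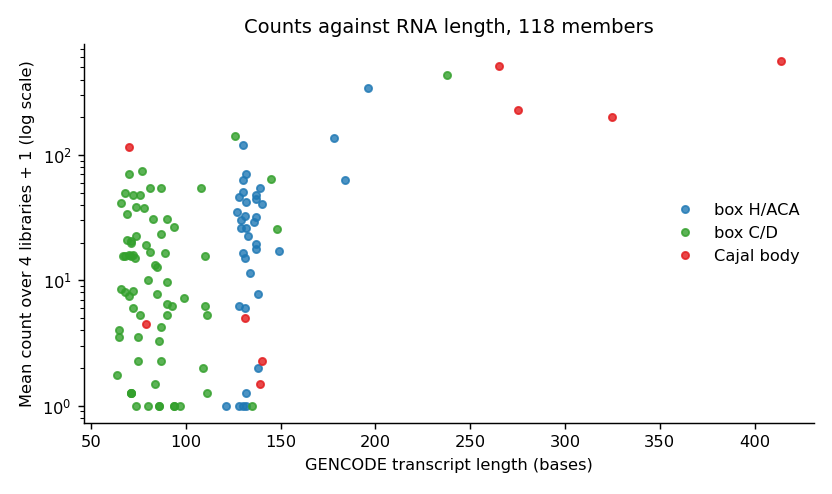
Each point is a member, with its GENCODE transcript length in bases on the x axis and its mean count over the 4 libraries plus 1 on a log y axis, coloured by class. The 8 members of 150 bases or more, with a median of 285 counts, stand above most of the shorter ones.

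The Cajal body RNAs were the class with the most counts in wild type and the only one whose sum in every clone was below wild type. Their summed counts were 2360 in wild type, against 1191, 1340 and 1600 in 3C, 3D and 3M. On the scale of CPM, with library totals scaled by the trimmed mean of M-values (TMM), these were 124 in wild type, against 88.3, 92.0 and 103 in the clones. The clone mean was 94.5 ± 7.76 CPM (SD, n = 3), a log2 difference of −0.39 in the means. Each clone was below wild type beyond counting error, with log2 differences of −0.49 (95% counting interval −0.59 to −0.38) in 3C, −0.43 (−0.52 to −0.33) in 3D and −0.26 (−0.35 to −0.17) in 3M. An exact two-sided permutation test over the 4 libraries gave p = 0.25. This is the smallest p that this design allows, so the test cannot decide whether the class differs. In bulk RNA, fewer cells that express an RNA and less RNA per cell cannot be told apart.

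The box H/ACA and box C/D sums did not separate the groups. The H/ACA sums were 92.2 CPM in wild type and 91.3, 101 and 85.1 CPM in 3C, 3D and 3M, with a clone mean of 92.6 ± 8.15 CPM (SD, n = 3). Wild type lay inside the range of the clones, and 3D stood above 3M beyond their counting intervals. The C/D sums were 109 CPM in wild type and 114, 115 and 105 CPM in the clones, with a clone mean of 111 ± 5.70 CPM (SD, n = 3). Wild type again lay inside the range of the clones.

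**Figure D2:**
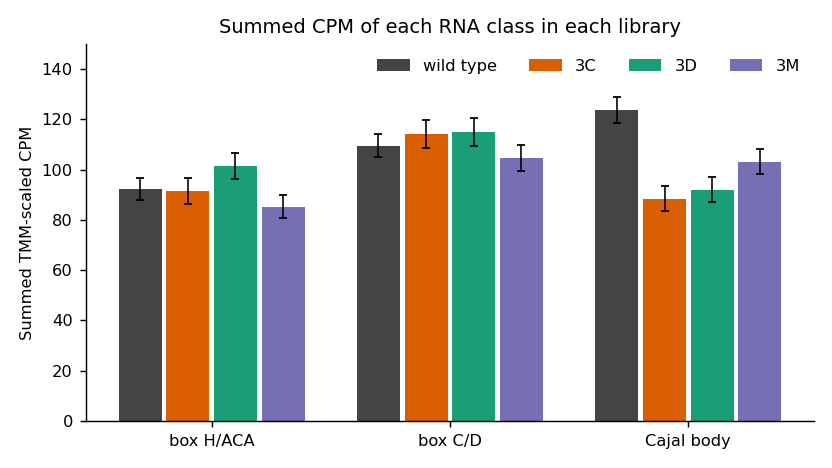
Bars give the summed TMM-scaled CPM of box H/ACA, box C/D and Cajal body members in wild type and the 3 rescue clones, and error bars the exact 95% counting interval of the share. The Cajal body bars of the clones, 88.3 to 103, lie below the 124 of wild type, whereas the other classes overlap.

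Gene by gene, no member passed the adjusted p of 0.01 (edgeR quasi-likelihood test, adjusted over 13267 genes), against 0.00754% of all tested genes, which is 1 gene. At an unadjusted p of 0.05, 2 of 71 members were past the threshold, Scarna10 and Scarna6, both lower in the clones, against 4.42% of all tested genes that were lower and 10.3% in either direction. DESeq2 and limma-voom also called no member, and each had 2 members at an unadjusted p of 0.05. All 3 clones were below wild type for 21 of 71 members (29.6%), against 28.4% of all genes, and above it for 15 (21.1%), against 28.7%. Against all genes, the members' share was close to the background below wild type and under it above wild type. However, 61 of the 71 members had a mean count under 100. All 3 clones were below wild type for 17 of these 61 and above it for 11. For other genes with a mean count under 100, the shares were 29.2% below and 24.2% above. Such genes were thus also under the background above wild type. Whether the members' shortfall goes beyond theirs was not tested. Median log2 fold changes were −0.085 for box H/ACA, 0.032 for box C/D and −0.42 for Cajal body members, against 0.0051 for all genes. The medians of the single clones had SDs of 0.14, 0.090 and 0.18 around their mean for these classes. The H/ACA median turned to 0.013 without clone 3M, whereas the Cajal body median stayed between −0.32 and −0.44 without any one clone.

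**Figure D3:**
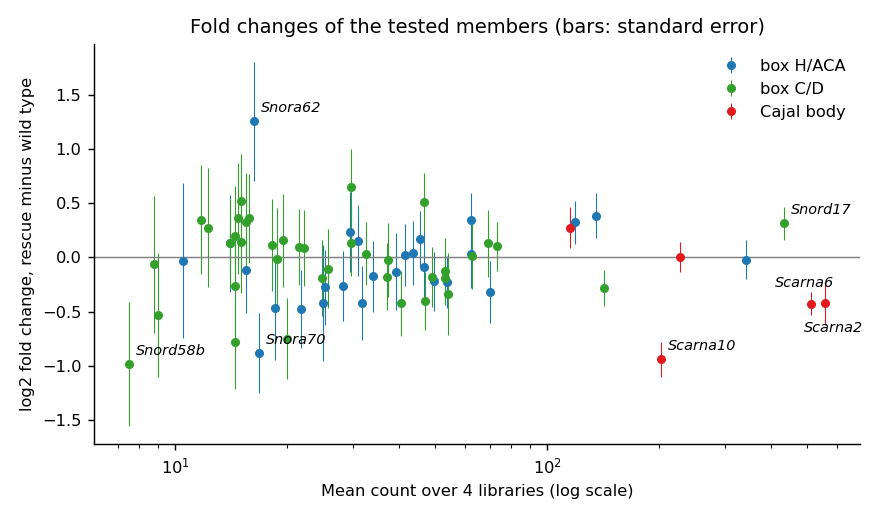
Each point is a tested member, with its mean count over the 4 libraries on a log x axis and its log2 fold change (rescue minus wild type) with standard error on the y axis, coloured by class. Members with few counts spread widely around 0, and Scarna10, Scarna6 and Scarna2, at −0.94, −0.43 and −0.42, are the lowest of those with a mean of 100 or more counts.

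Scarna10, a scaRNA known in human as U85 that carries both box types and acts on the U5 snRNA, had the lowest log2 fold change of the Cajal body class. It had 368 counts in wild type, against 135, 130 and 173 in 3C, 3D and 3M. These are 19.3 CPM in wild type and 10.0, 8.93 and 11.2 CPM in the clones. All 3 clones were thus below wild type, as for 28.4% of all tested genes. The log2 fold change was −0.94 with a standard error of 0.16 (edgeR adjusted p = 0.191). Without clone 3D the value was −0.86 with an adjusted p of 0.00894, which is past the threshold. In that fit 420 genes were called. The adjusted p lay between 0.0758 and 0.718 under the other alternatives.

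Scarna10 lies in an intron of Ncapd2, a condensin subunit. The counts of Ncapd2 exons were 8183 in wild type, against 4774, 5502 and 5536 in the clones, with a log2 fold change of −0.24 and a standard error of 0.066 (edgeR adjusted p = 0.339). Host and scaRNA were both lower in all 3 clones, and the difference of Scarna10 was the larger. Reads from unspliced host RNA that cross a member are counted for the member, and their part was not tested.

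Scarna6 also lay below wild type in every clone. It had 756 counts in wild type, against 379, 443 and 463 in 3C, 3D and 3M, or 39.6 CPM against 29.5 ± 1.22 CPM (SD, n = 3). The log2 fold change was −0.43 with a standard error of 0.10 (edgeR adjusted p = 0.291). Its host Atg16l1, an autophagy gene, had 83.6 CPM in wild type and 87.6 ± 3.70 CPM in the clones (SD, n = 3), a log2 fold change of 0.068 (edgeR adjusted p = 0.813).

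Scarna2, which guides methylation of the U2 snRNA, was the most counted member of all. It had 824 counts in wild type, against 373, 432 and 608 in 3C, 3D and 3M, or 43.2 CPM against 27.7, 29.7 and 39.2 CPM. Clone 3M was close to wild type, with a log2 difference of −0.14 whose 95% counting interval (−0.29 to 0.01) reached above 0, whereas 3C and 3D were lower beyond counting error, at −0.64 (−0.82 to −0.46) and −0.54 (−0.71 to −0.37). The log2 fold change was −0.42 with a standard error of 0.20 (edgeR adjusted p = 0.536). No annotated host gene contains Scarna2.

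The remaining Cajal body RNAs did not follow this direction. Scarna13, a tandem H/ACA RNA known as U93, had 277 counts in wild type, against 194, 221 and 219 in the clones, and its level was 14.5 CPM in wild type and 14.6 ± 0.55 CPM in the clones (SD, n = 3). Scarna9 had 122 counts in wild type, against 99, 110 and 128 in the clones, or 6.39 CPM against 7.72 ± 0.48 CPM (SD, n = 3), with a log2 fold change of 0.27 (edgeR adjusted p = 0.647). All 3 clones were above wild type for Scarna9. Scarna8, Scarna17, Scarna3a and Scarna3b had at most 6 counts in any library and were not tested. The lower sum of the class therefore rests on Scarna2, Scarna6 and Scarna10.

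**Figure D4:**
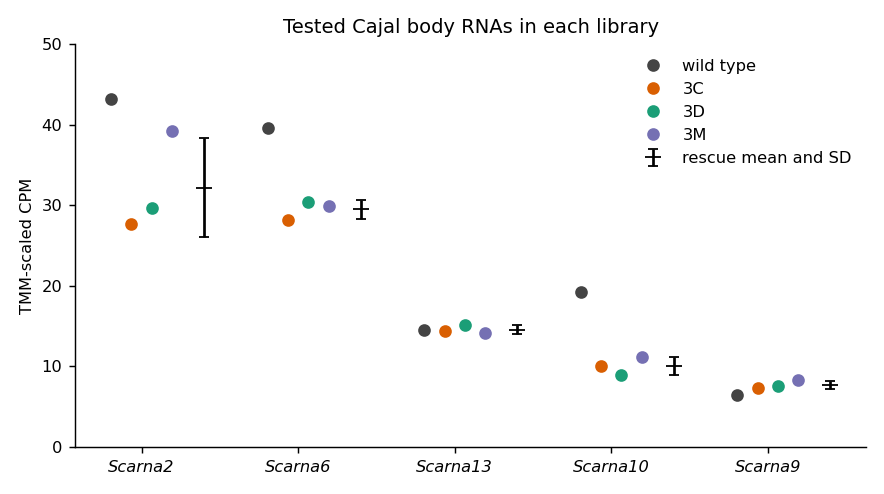
Points give the TMM-scaled CPM of each tested Cajal body RNA in wild type and the rescue clones, and the crosses beside them the clone mean with its SD (n = 3). Wild type is above every clone for Scarna2, Scarna6 and Scarna10, at 43.2, 39.6 and 19.3 CPM, and not for Scarna13 or Scarna9.

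Other short structured RNAs, chosen after their values were seen, gave mixed values. The RNA of RNase MRP, Rmrp, had 4030 CPM in wild type and 2309 ± 305 CPM in the clones (SD, n = 3), with a log2 fold change of −0.80 (edgeR adjusted p = 0.191). The related RNase P RNA, Rpph1, had 6425 CPM in wild type and 7381 ± 276 CPM in the clones (SD, n = 3), a log2 fold change of 0.20. The telomerase RNA Terc, which has an H/ACA domain and visits the Cajal body, had 50.9 CPM in wild type and 47.3 ± 4.64 CPM in the clones (SD, n = 3).

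Levels per kilobase depended on the annotation. With GENCODE lengths, the highest members were Scarna6 at 121 CPM per kb, Snord17 at 118, Snora74a at 111, Scarna9 at 106 and Scarna2 at 84.4. With RefSeq spans, Scarna2 came first at 573 CPM per kb, followed by Scarna9 at 176 and Scarna10 at 174, since RefSeq gives Scarna2 61 bases where GENCODE gives 414, and Scarna10 71 where GENCODE gives 325. RefSeq was shorter for 95 members. The annotation behind the counts was not given in the sources used here, so the order of these levels depends on which is used.

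Among the box C/D members, Snord17 and Snord22 held the most counts. Snord17 had 452 counts in wild type, against 417, 463 and 399 in 3C, 3D and 3M, or 23.7 CPM against 29.5 ± 3.27 CPM (SD, n = 3). All clones were above wild type, and the log2 fold change was 0.31 with a standard error of 0.15 (edgeR adjusted p = 0.550). Without Snord17, the C/D sum of the clones differed from wild type by −0.071 on the log2 scale in place of 0.022.

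Snord22, a snoRNA known for a role in the processing of 18S rRNA, had 197 counts in wild type, against 121, 125 and 124 in the clones. Its level was 10.3 CPM in wild type and 8.52 ± 0.49 CPM in the clones (SD, n = 3), below wild type in all 3, with a log2 fold change of −0.28 (edgeR adjusted p = 0.601). Its non-coding host Snhg1 had a log2 fold change of 0.023 (edgeR adjusted p = 0.951). GENCODE places Snord22 over an exon of Snhg1, where counts can be lost as ambiguous.

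The next most abundant C/D members, Snord47, Snord104 and Snord15b, had log2 fold changes of 0.10, 0.13 and 0.016. For each of the 3, the clones lay on both sides of wild type. Of 12 listed snoRNAs that take part in cleavage or folding of pre-rRNA, 5 were members here. Beside Snord22 these were Snord14a, Snord14c, Snord14d and Snord118 (U8). Snord14a had 1, 1, 2 and 1 counts in wild type, 3C, 3D and 3M. Snord14c, Snord14d and Snord118 had 0 counts in every library, which does not show that they are absent. Snord118 shares stretches of 50 bases with a transcript at another locus.

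Of the listed imprinted snoRNAs, Snord64 was the one with counts. Snord116 and its rows Snord116l1 and Snord116l2, from the Prader-Willi region of chromosome 7, had no count in any library. All bases of Snord116l1 and Snord116l2 recur elsewhere within stretches of 50 bases, so reads from them could be lost as multimapping, and a count of 0 does not show that they are absent. Snord64 of the same region had 16, 10, 17 and 15 counts in wild type, 3C, 3D and 3M, with a log2 fold change of 0.20 (edgeR adjusted p = 0.91).

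The largest fitted changes of the C/D class with all clones on one side came from few counts. Snord58b had 14 counts in wild type, against 3, 5 and 8 in the clones (log2 fold change −0.98 ± 0.57, SE). Snord89 had 25 counts in wild type, against 8, 10 and 15 in the clones (−0.78 ± 0.43). Snord42b had 34 counts in wild type, against 18, 14 and 14 in the clones (−0.75 ± 0.37).
The highest values were of the same kind. Snord12 had 26 counts in wild type, against 29, 36 and 28 in the clones (0.65 ± 0.36), and Snord34 had 14 in wild type, against 16, 14 and 16 in the clones (0.52 ± 0.43). Snord19 had 44 counts in wild type, against 48, 45 and 50 in the clones (0.51 ± 0.27). None of these passed an unadjusted p of 0.05 by edgeR.

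The host genes named for these members were not called. Gnl3, which holds Snord19, had a log2 fold change of 0.27 (edgeR adjusted p = 0.291), above wild type in all 3 clones, and lies on chromosome 14. Rpl17, which holds Snord58b, had a log2 fold change of 0.14 (edgeR adjusted p = 0.63), and Rpl23a, which holds Snord42b, one of 0.074 (edgeR adjusted p = 0.78). Rpl13a, which holds Snord34, had one of 0.018 (edgeR adjusted p = 0.948). Snord89 and Snord12 have no host by the rule used here. With standard errors of 0.37 or more for Snord58b, Snord42b and Snord34, differences of the size of their hosts' were not detectable at this depth.

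In the box H/ACA class, Snora74a was the most counted, with 421 counts in wild type, against 290, 366 and 290 in 3C, 3D and 3M. It stood at 22.1 CPM in wild type and 21.5, 25.1 and 18.7 CPM in the clones, on both sides of wild type, with a log2 fold change of −0.020 (edgeR adjusted p = 0.983). Snora81, in the translation factor gene Eif4a2, had 136 counts in wild type, against 144, 123 and 138 in the clones, or 7.13 CPM against 9.34 ± 1.18 CPM (SD, n = 3). Snora65, in Rpl12, had 123 counts in wild type, against 106, 130 and 115 in the clones, or 6.45 CPM against 8.07 ± 0.78 CPM (SD, n = 3). Both were above wild type in all 3 clones, with log2 fold changes of 0.39 (edgeR adjusted p = 0.567) and 0.32 (adjusted p = 0.615). Eif4a2 itself had a log2 fold change of 0.018. Both Snora81 and Snora65 share stretches of 50 bases with transcripts at other loci, as do 16 members in all, and read pairs that map to several places are not counted. How many pairs were lost in this way was not tested.

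Snora17 and Snora31 were the next in abundance. Snora17 had 99 counts in wild type, against 46, 76 and 59 in the clones, with a log2 fold change of −0.32 (edgeR adjusted p = 0.732). Clone 3D was at the level of wild type, and the other clones were lower. Snora31 is described with chromosome 14.

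Snora62 (E2), in an intron of the ribosomal protein gene Rpsa, had the largest log2 fold change of all tested members. It had 10 counts in wild type, against 12, 18 and 25 in 3C, 3D and 3M, or 0.52 CPM against 0.89, 1.24 and 1.61 CPM. The log2 fold change was 1.25 with a standard error of 0.55 (edgeR adjusted p = 0.508), and Rpsa differed by −0.0068. Snora70, in Rpl10 on the X chromosome, had 30 counts in wild type, against 13, 12 and 12 in the clones. The fitted log2 fold change was −0.88 with a standard error of 0.37 (edgeR adjusted p = 0.496), and Rpl10 differed by −0.035. The groups do not overlap for Snora62 or Snora70, as for 28.7% and 28.4% of all genes in these directions.

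A host gene could be assigned to 100 members, in 74 genes, of which 23 encode ribosomal proteins and hold 32 members. Of these hosts, 72 were tested and none was called (edgeR, DESeq2 and limma-voom, adjusted p of 0.01). At an unadjusted p of 0.05, edgeR had 5 higher and 3 lower of the 72, against 10.3% of all tested genes in either direction and 4.42% lower. The median log2 fold change of the hosts was 0.015. All 3 clones were above wild type for 29 of the 72 hosts (40.3%, against 28.7% of all genes). They were below it for 17 (23.6%, against 28.4%). Without clone 3D, 1 host was called, Tpt1, at 0.38 (edgeR adjusted p = 0.00282). Over the 58 tested members with a tested host, 30 had the sign of their host, and Spearman's rho of both fold changes was 0.0735. Over all 100, rho of member CPM per kb with host CPM was 0.0574. These are correlations across genes, which share libraries and are not independent.

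Members of one host differed widely in counts. Rpl13a holds 4 box C/D members and had between 650 and 694 CPM in the 4 libraries. Snord32a had 34 counts in wild type, against 27, 29 and 29 in 3C, 3D and 3M. Snord33, with 84 bases against 83, had 0, 1, 0 and 1 counts in the same order. Its counts were far below those of Snord32a in each library, although TGATGA and CTGA are present in both sequences printed above. Snord35a had 8, 9, 1 and 4 counts.

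The 4 members in the non-coding RNA gene Snhg12 were closer together. Snora61 had 67 counts in wild type, against 38, 51 and 42 in the clones, and Snora16a had 59, 32, 55 and 40 counts in that order of libraries. Snora44 had 37, 21, 31 and 11 counts, and Snord99 had 25, 17, 22 and 22. GENCODE places Snora44, Snora61 and Snord99, but not Snora16a, over exons of Snhg12, where counts can be lost as ambiguous. In Rps3, Snord15b had 76, 58, 70 and 47 counts and Snord15a had 33, 20, 26 and 20. The order of the members by counts was the same in all 4 libraries for Rpl13a and Rps3, and not for Snhg12.

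**Figure D5:**
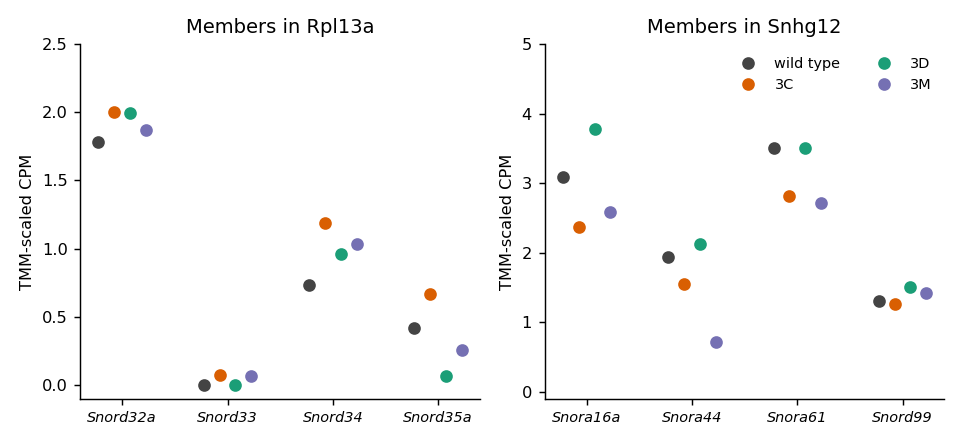
Points give the TMM-scaled CPM in each library of the 4 members in Rpl13a (left) and the 4 in Snhg12 (right). In Rpl13a, Snord32a is at 1.78 CPM or more and Snord33 at 0.0741 CPM or less in every library.

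Genes of chromosome 14 were higher in the clones as a whole, with a median log2 fold change of 0.36 over 445 tested genes against −0.0029 over the other chromosomes. At an unadjusted p of 0.05 by edgeR, 49.4% of the chromosome 14 genes were higher, against 4.34% on the other chromosomes. The 4 members on this chromosome are Snora31, Snord19, Snord69 and Snord8. Their hosts Tpt1, Gnl3 and Chd8 had log2 fold changes of 0.41, 0.27 and 0.28 and account for 3 of the 5 hosts that were higher at an unadjusted p of 0.05. Snora31 had 64 counts in wild type, against 53, 61 and 72 in the clones, or 3.35 CPM against 4.25 ± 0.36 CPM (SD, n = 3), a log2 fold change of 0.35 (edgeR adjusted p = 0.654). Snord19 and Snord69, both in the nucleolar protein gene Gnl3, differed in sign. Snord19 was higher, at 0.51, whereas Snord69 had 14 counts in wild type, against 4, 7 and 11 in the clones, at −0.53. Snord8 had at most 7 counts. The part of chromosome 14 in these values was not tested.

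Of 30 genes for snoRNP proteins, their assembly and scaRNA maturation, none passed the adjusted p of 0.01 (edgeR, DESeq2 and limma-voom). At an unadjusted p of 0.05, 2 were higher and 1 was lower by edgeR, against 10.3% of all tested genes in either direction and 4.42% lower, and the median log2 fold change was −0.055. All 3 clones were below wild type for 16 of the 30 (53.3%, against 28.4% of all genes) and above it for 9 (30.0%, against 28.7%). Without clone 3D, 1 gene was called, Smn1, at 0.56 (edgeR adjusted p = 0.00366). Smn1, whose product SMN assembles snRNPs, had 57.4 CPM in wild type and 83.2, 57.8 and 85.8 CPM in 3C, 3D and 3M, so 3D was at the level of wild type. The assembly factor Nufip1 had 96.2 CPM in wild type and 120 ± 3.31 CPM in the clones (SD, n = 3), a log2 fold change of 0.32 (edgeR adjusted p = 0.277). The exoribonuclease Dis3 had 245 CPM in wild type and 302 ± 2.42 CPM in the clones (SD, n = 3), a log2 fold change of 0.30 (edgeR adjusted p = 0.219). Both genes lie on chromosome 14. Rrp9, which binds the U3 snoRNA, had 107 CPM in wild type and 89.1 ± 3.29 CPM in the clones (SD, n = 3), a log2 fold change of −0.27 (edgeR adjusted p = 0.367).

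None of the core proteins was past an unadjusted p of 0.05 by edgeR. Of the box C/D core, Fbl, Nop56, Nop58 and Nhp2l1 had log2 fold changes of −0.064, 0.054, 0.040 and 0.18. All 3 clones were above wild type for Nop56, Nop58 and Nhp2l1 and below it for Fbl. Of the box H/ACA core, Dkc1, Gar1, Nhp2 and Nop10 had log2 fold changes of 0.071, 0.023, −0.14 and −0.15. Here all 3 clones were above wild type for Dkc1, below it for Nhp2 and Nop10, and on both sides for Gar1. Coilin (Coil), the scaffold of the Cajal body, had one of −0.12, and Wrap53, the protein that brings scaRNAs there, one of −0.14. Wrap53 was at 26.4 CPM in wild type and 25.7, 20.8 and 25.4 CPM in 3C, 3D and 3M. Only in 3D was it lower by over 0.1 on the log2 scale, at −0.34.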

How the data were processed

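RNA-seq counts were analysed for 1 wild-type and 3 Morc3 rescue ES cell libraries, grouped by the cell line and genotype in the labels. Per the methods, RNA was cleaned on columns with DNase, ribosomal RNA was depleted, and directional libraries were sequenced as paired-end reads of 50 bases. The authors aligned these with STAR to mm10 and deposited raw counts per gene of the read pairs that mapped uniquely, unstranded and for each strand. The annotation was not given in the sources used here. The reverse-strand counts were used, and the forward column held 1.26 to 1.31% as many. Rows that name no gene (unmapped, multimapping, unassigned and ambiguous, 47.3 to 54.9% of all read pairs) stayed out of library sizes and tests. Unmapped read pairs were 14.5% in wild type, against 21.8, 23.0 and 21.0% in 3C, 3D and 3M. Whether this difference bears on the counts of members was not tested.

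Tests used edgeR 4.0.16 (quasi-likelihood) in R 4.3.3 with TMM scaling, filterByExpr and Benjamini-Hochberg adjustment over 13267 genes, at an adjusted p of 0.01. Standard errors are the log2 fold change over the square root of F. A prior count of 2 was added for log2 differences of single clones, except those given with a counting interval, which used none. Alternatives were DESeq2 1.42.0 and limma 3.58.1 (voom), other scalings and filters, the unstranded column and leaving out each clone. The steps were tested on simulated data. Positions, hosts (the gene on the same strand that contains a member), lengths and sequences came from GENCODE M21 and RefSeq (GRCm38.p6), which matched 118 of 119 members. A 50-base stretch was called shared if it recurs in a transcript of another locus.

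The members and the lists were chosen with earlier results of these data known. Members named were those at an unadjusted p of 0.05, the 5 most abundant tested ones of each class, the 5 highest and 5 lowest log2 fold changes for which the clones did not straddle wild type, and listed pre-rRNA and imprinted snoRNAs with 10 or more counts. Hosts of the members named by p or by fold change were named, as were snoRNP genes at an unadjusted p of 0.05 and the core proteins. Members compared within one host were chosen after their values were seen. P-values measure the spread among the 3 clones, each a single-cell clone of one line. Some items are not reported here.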

Additional observations from a re-analysis of the deposited data

How the results depend on the processing

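Over all alternatives, 0 members were called at an adjusted p of 0.01 except without clone 3D, where 1 was called, Scarna10, at −0.86 (edgeR adjusted p = 0.00894). The same omission gave 1 call among host genes (Tpt1) and 1 among snoRNP genes (Smn1), against 0 in the other fits, and 420 calls among all genes against 1. DESeq2 called 65 genes, none of them a member. At an unadjusted p of 0.05, between 2 and 4 members were past the threshold in each alternative. The summed CPM of box C/D members moved from 0.022 to −0.071 on the log2 scale without the member with the most counts, Snord17.

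Signs turned for values near 0. Scarna13 was at −0.023 with library totals without Rn45s and between −0.027 and 0.026 when each clone was left out. Snord15b was at −0.012 with those totals, at −0.010 with limma-voom and between −0.13 and 0.19 when each clone was left out. In the same way Snord104 ranged from −0.091 to 0.23 and Snora74a from −0.14 to 0.081. The cause was not tested. The other 309 values under alternatives kept their direction and call, or moved by less than the SD of the clones. No paired analysis was possible because there is 1 wild-type library and the labels number no replicates. Depth limits the members under 10 counts. With 1 wild-type library, passage, culture, genotype and differences between libraries, such as the share of unmapped pairs, cannot be told apart.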
